A study of Mus musculus with 8 samples.

Results

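The Serpina genes described here are 10 liver-expressed members of clade A of the serpins, the serine protease inhibitor superfamily: the 5 mouse alpha-1-antitrypsin paralogs Serpina1a, Serpina1b, Serpina1c, Serpina1d and Serpina1e, and Serpina6, Serpina7, Serpina10, Serpina11 and Serpina12. They were chosen by gene symbol with their difference between ATF3 and Null livers already known, so that difference is given below as a description, with no test. They make up 10 of the 24972 genes listed, and all 10 were among the 13301 genes that reached at least 10 normalized counts in at least 4 libraries. Serpina12 met this minimum through its Null libraries, as given below. Livers came from C57BL/6J mice aged 18 weeks whose sex is not given. The ATF3 group (4 libraries) had received the viral vector AAV8-ALB-ATF3, and the Null group (4 libraries) AAV8-ALB-Null, into a vein at 10 weeks of age, 8 weeks before RNA extraction. AAV8 is an adeno-associated virus serotype that reaches hepatocytes well, ALB is taken to stand for the albumin promoter, which is active in hepatocytes, and ATF3 is a stress-induced transcription factor of the bZIP class. Both groups thus carried a virus, and no uninjected mice are among the libraries. The design text speaks of 8 mice per group and the labels give 4 libraries per group, without saying whether a library is 1 mouse or a pool. The p-values below set the difference between groups against the spread among libraries. That spread may therefore not be the spread among single mice, and how much of it is technical is not known.

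Most clade A serpins are made by hepatocytes and secreted into plasma. An inhibitory serpin offers a flexible reactive loop as bait: the protease cuts it, stays covalently bound, and is dragged across the folded inhibitor and disabled. Alpha-1-antitrypsin restrains neutrophil elastase in this way, and mice carry several copies of its gene whose reactive loops differ. Some clade A members have no inhibitory task and carry hormones instead, and cutting of the loop lowers their grip on the hormone.

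The reactive loop of the 5 alpha-1-antitrypsin paralogs is shown because it is the part that meets the protease, and because it holds some of the bases by which reads of such similar genes can be told apart. Their coding parts in GENCODE vM21 (GRCm38, mm10) are 1239 bases or 413 codons long in each paralog, and pairs of paralogs were between 96.3% (Serpina1b and Serpina1e, also Serpina1d and Serpina1e) and 98.5% (Serpina1a and Serpina1c) identical. Of these 1239 bases, 86 (6.94%) were not the same in all 5 paralogs. In the 66 bases of the loop, 15 (22.7%) were not, and 9 of its 22 codons encoded more than 1 residue among the paralogs. The loops lie on the minus strand, at chr12:103853765-103853830 (Serpina1a), chr12:103728332-103728397 (Serpina1b), chr12:103895102-103895167 (Serpina1c), chr12:103763770-103763835 (Serpina1d) and chr12:103947108-103947173 (Serpina1e), and capitals mark the bases that were not the same in all 5.
Serpina1a: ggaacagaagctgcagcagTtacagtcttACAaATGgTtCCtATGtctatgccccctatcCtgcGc
Serpina1b: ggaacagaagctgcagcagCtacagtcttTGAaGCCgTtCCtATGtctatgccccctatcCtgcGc
Serpina1c: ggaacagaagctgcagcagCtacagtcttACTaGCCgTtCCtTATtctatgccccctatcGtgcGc
Serpina1d: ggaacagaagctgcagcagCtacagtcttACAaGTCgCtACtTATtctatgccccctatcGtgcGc
Serpina1e: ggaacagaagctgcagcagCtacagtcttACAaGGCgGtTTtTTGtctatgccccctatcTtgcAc
The paralogs also share long runs. Of the stretches of 31 bases in its annotated transcripts, Serpina1c shared 82.2% with another gene, Serpina1a 65.2%, Serpina1d 64.7%, Serpina1e 54.2% and Serpina1b 44.7%. With another of the 5 paralogs the shares were 82.2%, 61.5%, 63.0%, 53.9% and 43.5% in the same order. Except in Serpina1c, the rest was shared only with genes outside the 5, and summing the 5 does not settle how such reads were divided. How reads shared by paralogs were divided is not given in the sources used here, so a value of a single paralog is uncertain, and the sum over all 5 is given beside them. Serpina6, Serpina7 and Serpina12 shared no such stretch with another gene and Serpina10 shared 1.25%. Serpina11 shared 37.2%, all of it with the overlapping transcript Gm28577.

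The stretch around the transcription start is shown for the same 5 genes because they were lower in ATF3 livers together, as given below. It runs past the annotated start in Serpina1a to Serpina1d and lies wholly before it in Serpina1e. The windows are RefSeq promoter sequence (GRCm38.p6), 110 bases each on the minus strand, lined up on the capitals, which mark GTTAAT, letters that all 5 share near the start. They lie at chr12:103863601-103863710 (Serpina1a), chr12:103738176-103738285 (Serpina1b), chr12:103904938-103905047 (Serpina1c), chr12:103773610-103773719 (Serpina1d) and chr12:103956936-103957045 (Serpina1e).
Serpina1a: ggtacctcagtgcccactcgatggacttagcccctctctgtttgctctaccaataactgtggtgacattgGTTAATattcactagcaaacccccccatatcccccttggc
Serpina1b: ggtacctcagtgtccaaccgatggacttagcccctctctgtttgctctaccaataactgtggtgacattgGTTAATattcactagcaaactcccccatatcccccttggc
Serpina1c: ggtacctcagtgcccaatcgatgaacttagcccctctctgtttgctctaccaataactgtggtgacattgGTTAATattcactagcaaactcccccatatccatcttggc
Serpina1d: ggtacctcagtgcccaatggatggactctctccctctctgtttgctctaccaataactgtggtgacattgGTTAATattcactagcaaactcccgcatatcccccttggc
Serpina1e: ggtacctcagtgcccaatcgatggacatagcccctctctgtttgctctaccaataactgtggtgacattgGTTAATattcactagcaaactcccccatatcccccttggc
Over the 110 bases, 14 (12.7%) were not the same in all 5. Pairs of paralogs differed at between 3 bases (Serpina1e and Serpina1a, also Serpina1e and Serpina1b) and 9 bases (Serpina1c and Serpina1d). Whether these bases bear on the levels was not tested.

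The window before Serpina12 is shown because this gene had the largest difference of the 10 between the groups. It spans chr12:104044444-104044563 on the minus strand, 120 bases of RefSeq sequence (GRCm38.p6), and capitals mark a match to TTGCNNAA, a form of the C/EBP motif.
Serpina12: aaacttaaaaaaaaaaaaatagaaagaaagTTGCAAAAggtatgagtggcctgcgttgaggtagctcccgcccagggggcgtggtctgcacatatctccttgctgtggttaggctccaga
For 8 of the 10 genes RefSeq promoter sequence was at hand, and Serpina6 and Serpina10 were not matched. In the 250 bases before the start, on both strands, 5 motifs were searched, chosen with the promoters in view, and no matches overlapped each other. The cAMP response element TGACGTCA was in none of the 8 genes' windows and in 1.55% of all 32851 promoter windows of that length. The composite C/EBP-ATF motif TGATGCAA was likewise in none of the 8 genes' windows, against 0.791% of all. The AP-1 motif TGANTCA was in the windows of Serpina1a, Serpina1b, Serpina1c and Serpina1d, at -233, -240, -239 and -229 from the start, and in 6.75% of all windows. Serpina1e has its annotated start further from these letters (GTTAAT at -78, against -16 to -27 in the other 4), so its window does not reach as far as theirs. GTTAAT, the letters on which the 5 paralogs were lined up, was in their windows by that choice. It was also in the window of Serpina7, and in 6.43% of all windows. TTGCNNAA was in those of Serpina1b, Serpina1d, Serpina1e, Serpina7 and Serpina12, and in 9.56% of all. Serpina7, Serpina11 and Serpina12 had no AP-1 match. The 5 paralogs are so similar that their matches at like places are not separate finds, and shares of all windows are no measure for them. A match describes letters only, and no binding was measured.

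The libraries held between 23919261 and 28446045 normalized counts. Atf3 had between 5611 and 7053 normalized counts in ATF3 livers and between 20.3 and 24.5 in Null livers, a log2 difference of 8.05 (SE 0.11), as the labels imply. Over all genes tested by limma on log2(normalized count + 1) with Benjamini-Hochberg adjustment, 1306 (9.82%) were lower in ATF3 livers and 1513 (11.4%) higher at an adjusted p under 0.05. Without the library ATF3 3, 846 were lower and 1003 higher. The 10 hepatocyte markers summed to between 3651620 and 4348320 normalized counts in ATF3 livers and between 2789930 and 4221650 in Null livers, with Ttr higher, Cps1 lower and the other 8 not passing. None of the markers of Kupffer cells, endothelial cells or stellate cells passed (8 tested of each). Of the 8 listed markers of lymphocytes and neutrophils only 3 were tested, and none passed. Of the 6 tested cholangiocyte markers Sox9 was lower. Ly6g and Mpo, neutrophil markers, were under 1 in every library. Null 1 stood apart in the acinar genes of the pancreas (5 genes, chosen after the values were seen), which summed to 102982 normalized counts there, 0.374% of its total, against 136 to 234 in ATF3 livers and 295 to 1282 in the other Null livers. Null 3 stood apart in the 5 adipocyte markers, which summed to 253 there, against 2.26 to 8.68 in ATF3 livers and 7.44 to 10.4 in the other Null livers. The locus Mir6236 held between 0.308% (Null 4) and 89.4% (Null 1) of the TPM, so TPM values are not compared between libraries as deposited. The part of these features in the results below was not tested, and values without single libraries are given.

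All 10 Serpina genes had lower normalized counts in ATF3 livers than in Null livers, with no overlap between the 4 libraries of each group. All 10 were past the threshold of the fit over all genes in that direction and none in the other, where 9.82% of all tested genes were lower, and 12.6% of them (1670 genes) had groups that did not overlap with ATF3 lower. Nothing is read from these counts, since the genes were chosen on this difference. Their median log2 difference was -2.82, against 0.00681 over all tested genes, and it spanned -6.51 (Serpina12) to -0.65 (Serpina6). All 10 were also called lower when any one of the 8 libraries was left out, Null 1 and Null 3 included. In bulk liver RNA, fewer cells that make a transcript and less transcript per cell cannot be told apart.

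**Figure D1:**
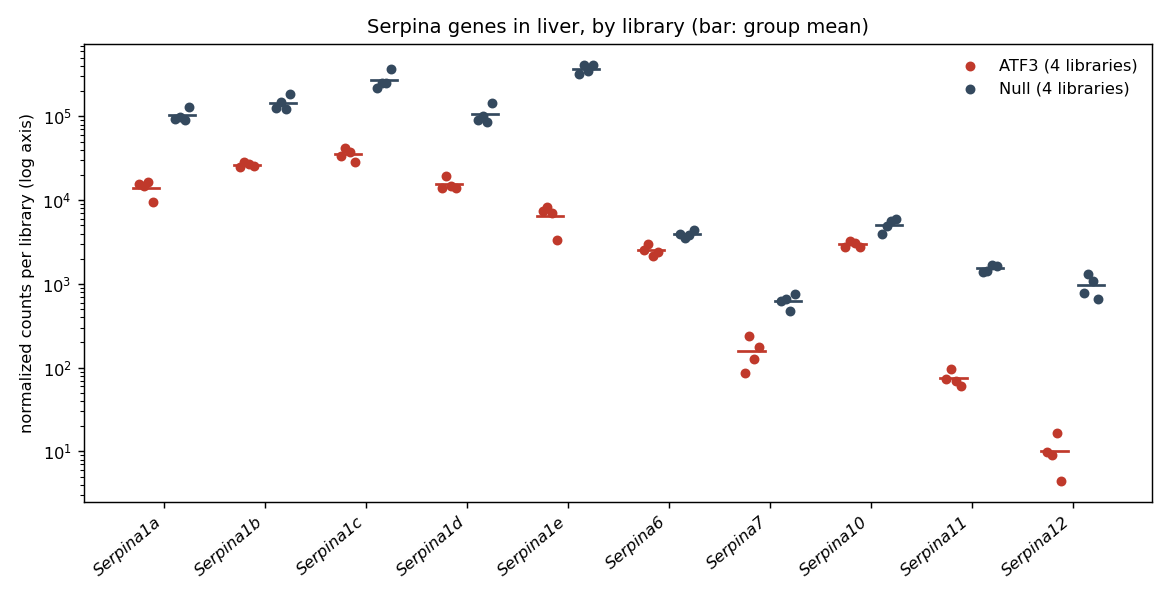
Normalized counts (log axis) of the 10 Serpina genes in each of the 4 ATF3 libraries (red, left) and the 4 Null libraries (dark, right), with a bar at each group mean. The groups are apart for every gene, by the widest margin for Serpina1e and Serpina12 and the narrowest for Serpina6 and Serpina10.

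The alpha-1-antitrypsin genes had the highest levels of the 10. Serpina1a to Serpina1e together had 95563, 112096, 103933 and 81049 normalized counts in ATF3 1 to 4, and between 844315 and 1238850 in the Null libraries, highest in Null 4. The means were 98160 ± 13255 in ATF3 livers and 998422 ± 174387 in Null livers (SD, n = 4 each), so ATF3 livers held 9.83% of the Null level, a ratio of 10.2 for Null over ATF3. On the log2 scale the sum differed by -3.34 (SE 0.16). The 5 genes made up 0.327% to 0.433% of all normalized counts in ATF3 livers and 3.07% to 4.36% in Null livers. No ATF3 library came near the share seen in any Null library.

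Serpina1e stood apart from its paralogs. It had 7457, 8224, 7003 and 3389 normalized counts in ATF3 1 to 4, against 317232, 409620, 352982 and 413654 in Null 1 to 4. ATF3 4 was the lowest of its group, and the lowest Null library was 38.6-fold above the highest ATF3 library. The means of 6519 ± 2146 in ATF3 livers and 373372 ± 46562 in Null livers (SD, n = 4 each) put the ATF3 level at 1.75% of the Null level, with a log2 difference of -5.91 (SE 0.25).

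The other 4 paralogs were lower by amounts close to each other. Serpina1a had 15479, 14696, 16697 and 9416 normalized counts in ATF3 1 to 4, against 93382, 99812, 89463 and 128185 in Null 1 to 4. Serpina1c, the most abundant paralog in ATF3 livers, had 33792, 41644, 37999.9 and 28418 in ATF3 1 to 4, against 217567, 251523, 247524 and 368339 in Null 1 to 4. In both genes ATF3 4 was the lowest and Null 4 the highest library of all 8. Serpina1b had 24842, 28278, 27374 and 25825 in ATF3 1 to 4, against 125348, 147646, 124205 and 185284 in Null 1 to 4, and was the steadiest of the 10 genes among ATF3 livers, with a coefficient of variation of 5.79%. Serpina1d had 13993, 19253, 14859 and 13999 in ATF3 1 to 4, against 90787, 101222, 86529 and 143386 in Null 1 to 4, and ATF3 2 was above the other ATF3 libraries. Their log2 differences were -2.89 (SE 0.19) for Serpina1a, -2.44 (SE 0.14) for Serpina1b, -2.92 (SE 0.19) for Serpina1c and -2.75 (SE 0.18) for Serpina1d. ATF3 livers thus held between 13.1% (Serpina1c) and 18.3% (Serpina1b) of the Null level in these 4 genes, which summed to 91642 ± 11336 in ATF3 livers and 625050 ± 136934 in Null livers (SD, n = 4 each), against 1.75% in Serpina1e.

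Shares within a library do not depend on how libraries are scaled to each other, so the makeup of the 5 paralogs was taken from TPM, which corrects for transcript length. Serpina1e made up 8.44%, 7.89%, 7.29% and 4.49% of their summed TPM in ATF3 1 to 4, against 39.6%, 42.6%, 41.2% and 35.2% in Null 1 to 4. Every ATF3 library lay far below every Null library, and within each group the library numbered 4 was the lowest. The mean share was 7.03 ± 1.76% in ATF3 livers and 39.7 ± 3.19% in Null livers (SD, n = 4 each). The shares of the others were higher in ATF3 livers, with no overlap between the groups in any of them. Serpina1c averaged 37.0 ± 1.03% in ATF3 livers and 27.0 ± 2.17% in Null livers, and Serpina1b 28.2 ± 3.06% in ATF3 livers and 14.6 ± 0.554% in Null livers. Serpina1d averaged 16.1 ± 1.56% in ATF3 livers and 10.4 ± 0.878% in Null livers, and Serpina1a 11.7 ± 1.90% in ATF3 livers and 8.27 ± 0.452% in Null livers. Set against the other 4 paralogs summed, Serpina1e stood at a TPM ratio between 0.0470 and 0.0922 in ATF3 livers and between 0.544 and 0.742 in Null livers. A share can grow while its gene is lower: all 5 paralogs had fewer normalized counts in ATF3 livers. These shares rest on the authors' unstated division of shared reads among paralogs.

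**Figure D2:**
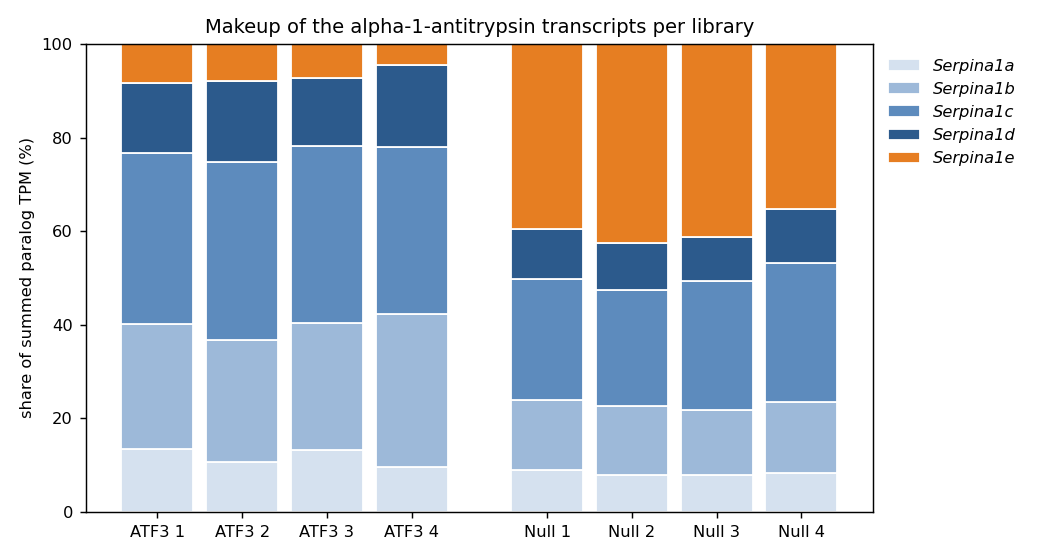
Share of the summed TPM of the 5 alpha-1-antitrypsin paralogs (percent, stacked bars) in each ATF3 library (left) and each Null library (right). The Serpina1e segment takes 4.49% to 8.44% of an ATF3 bar and 35.2% to 42.6% of a Null bar.

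Serpina10 encodes the protein Z-dependent protease inhibitor, which shuts off coagulation factor X once it is active and also inhibits factor XI. It had 2779.8, 3273, 3072 and 2797 normalized counts in ATF3 1 to 4, against 3956, 4913, 5568 and 5913 in Null 1 to 4. The groups did not overlap, but the lowest Null library was only 1.21-fold above the highest ATF3 library. The means were 2980.2 ± 237 in ATF3 livers and 5087 ± 861 in Null livers (SD, n = 4 each), a log2 difference of -0.76 (SE 0.13), and ATF3 livers held 58.6% of the Null level.

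Serpina12 encodes vaspin, known from adipose tissue, which inhibits kallikrein 7. It had 9.96, 9.13, 16.8 and 4.45 normalized counts in ATF3 1 to 4, against 788, 1311, 1095 and 655 in Null 1 to 4. Of the ATF3 libraries only ATF3 3 reached 10, so the gene met the minimum for testing through its Null libraries. ATF3 4 was again the lowest ATF3 library, while Null 4, the highest Null library for 8 of the 10 genes, was the lowest Null library here. The means were 10.1 ± 5.08 in ATF3 livers and 962 ± 296 in Null livers (SD, n = 4 each), 95.5-fold apart, with a log2 difference of -6.51 (SE 0.34). At such low values the log2 difference depends on the added 1: with 10 added it was -5.58. Null 3, where the adipocyte markers stood apart, was second to Null 2 for Serpina12, and without Null 3 the log2 difference was -6.43.

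Serpina11 lies between Serpina1e and Serpina12 on the chromosome. It had 73.3, 95.4, 69.8 and 60.3 normalized counts in ATF3 1 to 4, against 1396, 1441, 1683 and 1639 in Null 1 to 4. Null libraries were close together, and the lowest of them was 14.6-fold above the highest ATF3 library. The means were 74.7 ± 14.9 in ATF3 livers and 1539.7 ± 143 in Null livers (SD, n = 4 each), a log2 difference of -4.36 (SE 0.14), and ATF3 livers held 4.85% of the Null level.

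The hormone carriers differed in how far apart the groups were. Serpina6 encodes corticosteroid-binding globulin, the main plasma carrier of corticosterone. It had 2561, 3018, 2147 and 2378 normalized counts in ATF3 1 to 4, against 3909, 3541, 3877 and 4438 in Null 1 to 4. This was the narrowest gap of the 10 genes, 1.17-fold between the lowest Null library and the highest ATF3 library. The means were 2526 ± 369 in ATF3 livers and 3941 ± 370.5 in Null livers (SD, n = 4 each), a log2 difference of -0.65 (SE 0.12), and ATF3 livers held 64.1% of the Null level. Serpina7 encodes thyroxine-binding globulin, which carries thyroid hormone in plasma. It had 86.1, 240.2, 126 and 179 normalized counts in ATF3 1 to 4, against 624, 669, 471 and 753 in Null 1 to 4. Its ATF3 libraries were spread more widely than those of the other carrier, with a coefficient of variation of 42.3%, against 14.6% for Serpina6. The means were 158 ± 66.8 in ATF3 livers and 629 ± 118 in Null livers (SD, n = 4 each), a log2 difference of -2.07 (SE 0.28), and ATF3 livers held 25.1% of the Null level.

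Levels of different genes were compared per transcript length, as TPM rescaled between libraries by median of ratios, with factors taken from the TPM values themselves. In ATF3 livers the order from the top was Serpina1c (1021 ± 164), Serpina1b (767 ± 44.2), Serpina1d (441 ± 71.6), Serpina1a (324 ± 73.9), Serpina1e (197 ± 64.9), Serpina10 (75.5 ± 5.98), Serpina6 (63.6 ± 9.33), Serpina7 (3.11 ± 1.32), Serpina11 (2.03 ± 0.405) and Serpina12 (0.1005 ± 0.0505). In Null livers it was Serpina1e (11300 ± 1376), Serpina1c (7818 ± 1899), Serpina1b (4209 ± 815), Serpina1d (3002 ± 733), Serpina1a (2371 ± 399), Serpina10 (129 ± 21.6), Serpina6 (99.4 ± 9.28), Serpina11 (41.7 ± 3.85), Serpina7 (12.4 ± 2.32) and Serpina12 (9.58 ± 2.95), each as mean and SD of 4 libraries. Serpina1e was thus number 5 of the 10 in ATF3 livers and at the top in Null livers, and Serpina11 and Serpina7 changed places. Neighbours in the order whose libraries overlapped were Serpina1a and Serpina1e, Serpina10 and Serpina6, and Serpina7 and Serpina11 in ATF3 livers. In Null livers they were Serpina1e and Serpina1c, Serpina1b and Serpina1d, Serpina1d and Serpina1a, Serpina10 and Serpina6, and Serpina7 and Serpina12. Overlap here is between ranges over a group, not within a library. Among the paralogs each of these pairs kept its order within every library of the group in which its ranges overlapped.

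Among livers of 1 group the genes did not move as a block. ATF3 4 was the lowest ATF3 library for Serpina1a, Serpina1c, Serpina1e, Serpina11 and Serpina12, at -0.87 on the log2 scale from the group mean for Serpina1e and -0.90 for Serpina12, but at 0.28 above it for Serpina7. Null 4 was the highest Null library for the 5 paralogs, Serpina6, Serpina7 and Serpina10, at 0.47 above the group mean for Serpina1c and for Serpina1d, and at -0.50 for Serpina12. Serpina12 thus lay opposite to the 5 paralogs in that library.

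Of the 10 genes, 9 lie within 430 kb of chromosome 12 and all on the minus strand (GENCODE vM21, GRCm38), from Serpina10 at chr12:103614786-103631444 to Serpina12 at chr12:104028769-104044443. Serpina7 is on the X chromosome at chrX:139079257-139085236, also on the minus strand. Along the cluster the log2 differences were -0.76 and -0.65 for Serpina10 and Serpina6 at one end, -2.44 to -2.92 for Serpina1b, Serpina1d, Serpina1a and Serpina1c in the middle, and -5.91, -4.36 and -6.51 for Serpina1e, Serpina11 and Serpina12 at the other end. In the annotation Serpina1b, at chr12:103728156-103830373, spans the whole of Serpina1d, at chr12:103763594-103773592, so these genes are not separate places along the cluster. The antisense gene B430119L08Rik overlaps Serpina1c, and whether reads were assigned by strand is not given in the sources used here.

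The genes around the 9 were taken from the annotation, out to 500 kb on either side. Of 63 annotated genes 25 were tested, and apart from the 9 these were 9 other Serpina genes, of which 1 rose and 4 fell, and 7 genes of other families, of which 1 rose and 2 fell. Over all tested genes 9.82% fell and 11.4% rose. Serpina9, which lies between Serpina11 and Serpina12, had 3.95 normalized counts in ATF3 1 and was listed at 0 in the other 3 ATF3 libraries, against 62.3, 82.9, 66.6 and 78.6 in Null 1 to 4. It reached the minimum for testing through its Null libraries alone. Its fitted log2 difference of -5.61 (SE 0.52, limma adjusted p = 4.91e-05) depends on the added 1. The pseudogene Serpina4-ps1, the next tested gene beyond Serpina12, averaged 92.8 ± 61.2 in ATF3 livers and 2510 ± 1235 in Null livers (SD, n = 4 each), a log2 difference of -4.83 (SE 0.41, adjusted p = 2.77e-05 by limma with Benjamini-Hochberg adjustment).

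The Serpina3 genes beyond them did not share this direction as a group. Serpina3m averaged 24632 ± 2807 in ATF3 livers and 4563 ± 962 in Null livers (SD, n = 4 each), and rose by 2.45 on the log2 scale (SE 0.15, limma adjusted p = 2.65e-06). Serpina3k, its overlapping neighbour and the most abundant of these genes, averaged 221532 ± 31557 in ATF3 livers and 329589 ± 51247 in Null livers and fell by 0.57 (SE 0.17, limma adjusted p = 0.0410). That call was lost when any 1 of 6 libraries, all but ATF3 2 and Null 1, was left out, with adjusted p between 0.0348 and 0.104 over the 8 omissions. Serpina3m and Serpina3k shared 35.0% and 24.2% of their 31-base stretches with other genes, so their split is uncertain too. Serpina3i, at 5.69 ± 1.53 in ATF3 livers and 14.9 ± 2.23 in Null livers, fell by 1.27 (SE 0.31, limma adjusted p = 0.0160) and likewise reached the minimum for testing through its Null libraries alone. Serpina3f, Serpina3g, Serpina3h and Serpina3n did not pass, with log2 differences of 0.26, 0.36, -0.25 and -0.03.

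On the other flank, Ifi27l2b, an interferon-inducible gene family member, rose by 3.77 (SE 0.15, limma adjusted p = 1.97e-07), with means of 827 in ATF3 livers and 59.3 in Null livers. Its relative Ifi27 fell by 0.73 (SE 0.16, limma adjusted p = 0.00866), and Ppp4r4, which encodes a regulatory subunit of protein phosphatase 4, fell by 1.002 (SE 0.19, limma adjusted p = 0.00443). Asb2, Otub2, Ddx24 and Ifi27l2a, the other 4 tested there, did not pass.

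**Figure D3:**
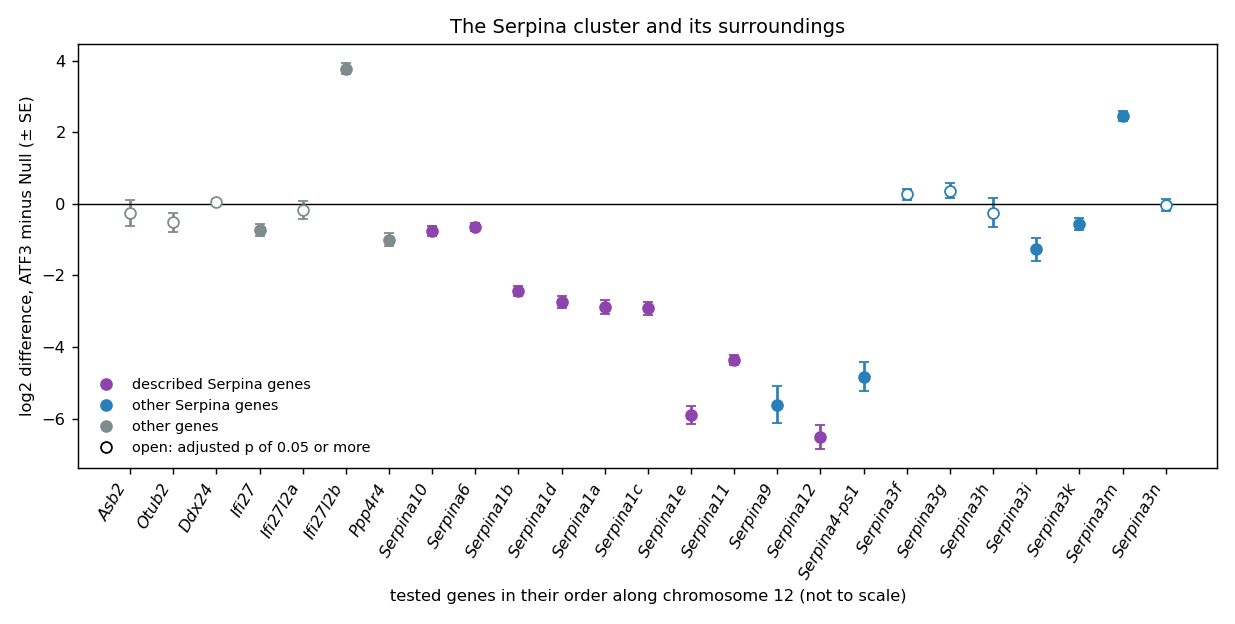
Log2 difference, ATF3 minus Null, with its standard error, for the 25 tested genes within 500 kb of the cluster, in their order along chromosome 12 (not to scale). Filled points passed an adjusted p of 0.05 by limma. The 9 cluster genes described here lie from -0.65 to -6.51, Serpina9 and Serpina4-ps1 beside Serpina12 lie at -5.61 and -4.83, and Serpina3m and Ifi27l2b lie above 0.

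Related genes were described through 7 lists written with earlier results of these data known, as counts beside the 9.82% of all tested genes that fell and the 11.4% that rose. In the list of other clade A serpins, which holds the Serpina3 genes and others named above, 4 of 10 tested genes fell and 1 rose, with a median log2 difference of -0.14. Agt, the angiotensinogen gene and a clade A member on another chromosome, did not pass at 0.03. Of 11 tested serpins of other clades, not all of them plasma proteins, 4 fell and 1 rose, with a median of -0.08. Those that fell were Serpine2, which encodes protease nexin 1 (-2.16, SE 0.24, limma adjusted p = 0.000144), Serpinb1a, an elastase inhibitor of neutrophils (-2.30, SE 0.43, adjusted p = 0.00381), Serpinf2, which encodes alpha-2-antiplasmin (-0.56, SE 0.12, adjusted p = 0.00906), and Serping1, which encodes the C1 inhibitor (-0.59, SE 0.13, adjusted p = 0.00925).

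Of 11 tested proteases and cofactors that these inhibitors meet, 3 fell and none rose, with a median log2 difference of -0.05. Hgfac, which encodes the activator of hepatocyte growth factor, fell by 0.85 (SE 0.10, limma adjusted p = 0.000187) and F9, coagulation factor IX, fell by 0.57 (SE 0.09, adjusted p = 0.00121). F10, the target of the Serpina10 protein, averaged 7530 ± 282 in ATF3 livers and 9077 ± 478 in Null livers (SD, n = 4 each) and fell by 0.27 (SE 0.08, limma adjusted p = 0.0416). The F10 call ended without any one of 6 libraries, all but Null 3 and Null 4 (adjusted p between 0.0354 and 0.110 over the 8 omissions). F11 did not pass, at 0.76 (SE 0.28, limma adjusted p = 0.0802). The neutrophil proteases Elane, Prtn3 and Ctsg and the kallikreins Klk7 and Klk14 did not reach the filter, so the proteases that alpha-1-antitrypsin and vaspin are best known to inhibit were not tested in these livers.

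Beside Serpina6, 15 genes of corticosteroid handling and glucocorticoid response were tested: 4 fell and 2 rose, with a median log2 difference of -0.08. Akr1d1, a steroid 5-beta-reductase that clears corticosteroids, rose by 1.21 (SE 0.11, limma adjusted p = 4.49e-05). Nr3c1, the glucocorticoid receptor gene, fell by 0.41 (SE 0.07, limma adjusted p = 0.00339), with 3353 ± 72.9 in ATF3 livers and 4443 ± 135 in Null livers (SD, n = 4 each). The response genes in the list did not share a direction. Pck1, a gluconeogenic enzyme, fell by 0.61 (SE 0.14, limma adjusted p = 0.0114). Mt2, a metallothionein, fell by 3.31 (SE 0.54, limma adjusted p = 0.00187), with between 57.2 and 103 normalized counts in ATF3 livers, against 3305 in Null 3 and 409 to 667 in the other Null livers. Klf9, a transcription factor gene, fell by 0.29 (SE 0.08, limma adjusted p = 0.0235) and Tat, tyrosine aminotransferase, rose by 0.63 (SE 0.16, adjusted p = 0.0197). The Klf9 call ended without any one of ATF3 1, ATF3 3 or Null 2 (adjusted p up to 0.0858) and the Tat call without any one of ATF3 3, ATF3 4 or Null 1 (adjusted p up to 0.0666). The other 9 genes, Fkbp5, Tsc22d3 and Per1 among them, did not pass.

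Beside Serpina7, 13 genes of thyroid hormone carriage, uptake and response were tested: 3 rose and 2 fell, with a median log2 difference of 0.18. Ttr, which encodes transthyretin, another plasma carrier of thyroxine, rose by 1.26 (SE 0.21, limma adjusted p = 0.00226), with 237971 ± 38346 in ATF3 livers and 101580 ± 30918 in Null livers (SD, n = 4 each). The carrier genes Ttr and Serpina7 thus differed in direction, while Alb, the third plasma carrier, did not pass. Thrsp, a thyroid hormone-responsive lipogenic gene, rose by 2.09 (SE 0.24, limma adjusted p = 0.000205) and the transporter gene Slc16a10 by 0.90 (SE 0.13, adjusted p = 0.000717). The uptake transporter genes Slco1a1 and Slco1b2 fell by 2.88 (SE 0.19, limma adjusted p = 5.38e-06) and by 0.94 (SE 0.13, adjusted p = 0.000678). Dio1, the deiodinase of liver, did not pass.

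Of 18 tested hepatocyte transcription factors 6 fell and 2 rose, with a median log2 difference of -0.22. Rora fell by 0.85 (SE 0.13, limma adjusted p = 0.00102), Foxa3 by 0.65 (SE 0.11, adjusted p = 0.00185), Stat5a by 0.63 (SE 0.10, adjusted p = 0.00145) and Cebpa by 0.60 (SE 0.13, adjusted p = 0.00918). Cebpd rose by 1.15 (SE 0.21, limma adjusted p = 0.00310). Stat3 fell by 0.30 (SE 0.09, limma adjusted p = 0.0438) and Nr5a2 rose by 0.30 (SE 0.07, adjusted p = 0.0154). The Stat3 call ended without any 1 of 6 libraries, all but ATF3 1 and Null 4 (adjusted p up to 0.139), and the Nr5a2 call without ATF3 3 (0.0573). Hnf4a, singled out after its values were seen, did not pass, at -0.39 (SE 0.13, limma adjusted p = 0.0529).

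The proteins that fold, export or dispose of alpha-1-antitrypsin in the endoplasmic reticulum were described because alpha-1-antitrypsin passes through that compartment on its way to plasma. Of 20 tested 2 rose and 1 fell, with a median log2 difference of 0.09. Edem2, which marks misfolded glycoproteins for disposal, rose by 0.55 (SE 0.11, limma adjusted p = 0.00601). Hspa5, the chaperone BiP, rose by 0.70 (SE 0.20, limma adjusted p = 0.0301), a call that ended without any one of ATF3 3, ATF3 4, Null 1 or Null 3 (adjusted p up to 0.0954). Mcfd2, a partner of the cargo receptor LMAN1, fell by 0.54 (SE 0.12, limma adjusted p = 0.00884). Pdia4 did not pass, at 0.49 (SE 0.18, limma adjusted p = 0.0753).

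**Figure D4:**
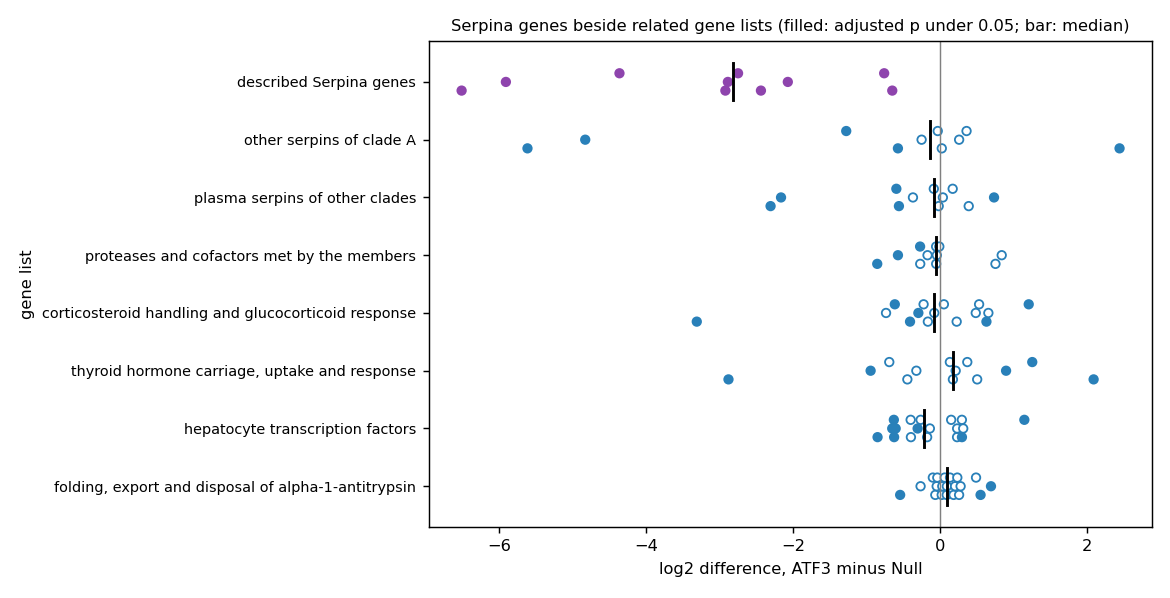
Log2 difference, ATF3 minus Null, of each tested gene in the 10 Serpina genes (top row) and the 7 related lists, with a bar at each median; filled points passed an adjusted p of 0.05 by limma. The 10 genes, chosen on this difference, have a median of -2.82, and the medians of the lists lie between -0.22 and 0.18.

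Genes with the pattern most like Serpina12 were ranked by the root mean square difference in log2(value + 1), centred per gene, over the 8 libraries. The 6 nearest were all major urinary protein genes, which encode pheromone-binding proteins made by liver: Mup14 (0.331), Mup12 (0.433), Mup18 (0.455), Mup21 (0.536), Mup7 (0.578) and Mup1 (0.604). Many genes of this family are close copies of each other. How much sequence these 6 share was not measured here, so the value of any 1 of them is uncertain. Mup14 averaged 841 normalized counts in ATF3 livers and 69860.4 in Null livers. The pattern most like the summed alpha-1-antitrypsin genes was that of C8a, which encodes a subunit of the complement membrane attack complex (0.230), followed by Gcnt4 (0.290), Tuba8 (0.290), Slc17a3 (0.297), Abca8b (0.304) and Slco1a1 (0.347). C8a averaged 3188 normalized counts in ATF3 livers and 31175 in Null livers. Tuba8 averaged only 4.43 in ATF3 livers and 58.7 in Null livers, so its pattern depends on the added 1. The ranking rests mostly on the difference between the groups, by which the Serpina genes were chosen, so it describes likeness only.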

How the data were processed

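Liver RNA of 8 libraries (4 ATF3, 4 Null) was extracted with a mirVana kit and made into stranded total RNA libraries, per the labels. Bowtie2 and mm10 are named in the submitters' processing notes and Illumina software in BaseSpace in the design text; the sources used here name no quantifier, annotation or use of strand. The authors deposited, per gene, a signal, which is an estimated read count divided by a scaling factor (called normalized counts here, not whole numbers), and TPM. Rows of 26 genes with date-like or repeated names were left out of TPM. Because no raw counts were used, limma 3.58.1 (R 4.3.3, trend, two-sided) was run on log2(normalized count + 1) keeping genes that reached 10 in 4 or more libraries, with Benjamini-Hochberg adjustment over 13301 genes and a threshold of 0.05, after tests on simulated data. Fold changes are on that scale, which understates those of low genes. Members and lists were chosen with earlier results of these data known. Named genes were the members, up to 4 genes per list by smallest p, those needed for counts of 5 or fewer, 6 nearest patterns for Serpina12 and for the summed paralogs (provisional symbols left out), and 4 neighbours by p; others were singled out after their values were seen. Positions and coding sequence are from GENCODE vM21, promoters from RefSeq. Alternatives were other added constants, filters and scalings, TPM, robust moderation and leaving out each library. Some genes counted in the lists are not reported here by name.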

Additional observations from a re-analysis of the deposited data

Results flagged for a closer look

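Serpina1d stood apart in 1 ATF3 library. ATF3 2 had 19253 normalized counts, against 13993, 14859 and 13999 in ATF3 1, ATF3 3 and ATF3 4. Its gap to the nearest of them was 0.835 of the range of the 4 libraries, above the critical value of Dixon's test at 95%. It was the only 1 of 22 groups checked (the 10 genes and the summed paralogs, in ATF3 and in Null livers) to pass that value, and chance passes about 1 in 20 groups. All 4 ATF3 libraries remained below the lowest Null library, at 86529, and without ATF3 2 the log2 difference of Serpina1d was -2.86.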

How the results depend on the processing

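No paired analysis was possible because the library numbers only give an order within a group and tie no ATF3 library to a Null library. All 10 Serpina genes were called lower under every alternative except TPM as scaled by the authors: added constants of 0.1 and 10, no filter, a mean of at least 50, median-of-ratios and upper-quartile scaling, TPM rescaled by median of ratios, robust moderation and each library left out. TPM as deposited carries the share taken by Mir6236, and there the median of all tested genes was 0.68, against 0.00681 in the main result; relative to it the members' median of -1.81 was still lower. On that scale 440 genes were higher and 76 lower, 3 of the 10 Serpina genes were called lower, the lists held 3 higher and 2 lower genes, and 5 genes in and beside the cluster were lower. The summed paralogs then differed by -2.37 and Serpina12 by -2.83, and the differences of Serpina6 (0.35) and Serpina10 (0.24) changed sign, both below that median of 0.68. The other 7 genes moved by more than 1 SD of their replicates without changing sign. Serpina12 differed by -5.58 with 10 added and by -3.22 in TPM rescaled by median of ratios, where its low values make the added 1 weigh more. Serpina11 also moved by more than 1 SD of its replicates in TPM rescaled by median of ratios, from -4.36 to -3.82. In normalized counts instead of TPM, the share of Serpina1a was 14.2% in ATF3 livers and 10.3% in Null livers. With 1 library left out, between 1003 (without ATF3 3) and 1960 (without Null 4) genes were higher and between 846 and 1774 lower, the lists held between 7 and 14 higher genes, and the summed paralogs differed by between -3.42 and -3.23. Among the other named genes, F10, Serpina3k and Stat3, which also lost their calls without single libraries, lost them under at least 1 other filter, scaling or moderation. Read depth was not recoverable from either table, so no counting error can be given for the low Serpina12 values in ATF3 livers.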
